A study of Mus musculus with 2 samples.

Results

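The genes described here encode chemokines and colony-stimulating factors, the secreted proteins with which epithelium draws in white blood cells and keeps them alive. They are Cxcl1, Cxcl2, Cxcl5, Cxcl10, Cxcl16, Cxcl17, Ccl2, Ccl20, Csf1 and Csf3. These 10 of the 31053 genes in the count matrices were taken by symbol and not by a cutoff on their measured values. Earlier results of these data were known when they were chosen. They were followed in luminal cells of the mammary gland sorted by flow cytometry from mice of the FVB/NJ strain, aged 3.5 months, and profiled with a droplet-based 3′ single-cell kit. The WT library came from Sox9-GFP mice. The C3-TAg library came from mice with the same reporter and, in addition, the C3-TAg transgene, in which the regulatory region of a prostate protein gene drives the simian virus T antigens, proteins that inactivate p53 and Rb, and which gives rise to mammary tumours. Both groups therefore carry the Sox9-GFP allele, and the number of animals behind each library and the sort gate are not given in the sources used here. Because each genotype is represented by 1 library, the differences below were not checked against replicates and carry no test.

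Each library was divided into 3 classes of cells. Hormone-sensing cells had at least 5 UMIs (unique molecular identifiers, each counting 1 captured transcript) per 10000 over Areg, Pgr, Esr1 and Cited1, the genes of the growth factor amphiregulin, the progesterone and estrogen receptors and a receptor cofactor. The other cells were called casein-high when the milk caseins Csn1s1, Csn1s2a, Csn2 and Csn3 made up at least 0.5% of their UMIs, and casein-low below that. None of the 10 genes entered this division. Levels are given in CPM, the gene's UMIs per 1000000 UMIs of all cells of the class, with 95% intervals. The intervals cover counting error only, and because many of these transcripts came from few cells they are too narrow as a measure of the error of a level.

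Chemokines act through receptors that belong to the G protein-coupled family and lead leukocytes along a gradient. Ligands that share a receptor draw the same cells: CXCL1, CXCL2 and CXCL5 bind CXCR2 on neutrophils, CXCL10 binds CXCR3 on T and natural killer cells, CCL2 binds CCR2 on monocytes, CCL20 binds CCR6 on dendritic cells and lymphocytes, and CXCL16 is a membrane-anchored ligand of CXCR6. CSF3 drives the production and survival of neutrophils and CSF1 that of macrophages, which take part in branching of the mammary duct. Most of these genes are switched on rapidly by NF-kB after tumour necrosis factor, interleukin-1 or microbial products, and Cxcl10 also by interferons.

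The filters and the doublet caller left 7046 WT cells with 78311995 UMIs and 7914 C3-TAg cells with 77807015 UMIs. In all, 20 barcode sequences occurred in both libraries. The WT library held 2720 hormone-sensing cells (38.6%), 3750 casein-high cells (53.2%) and 576 casein-low cells (8.18%), with median depths of 9432, 11802 and 7609 UMIs. The C3-TAg library held 2027 (25.6%), 2491 (31.5%) and 3396 (42.9%), with median depths of 7829, 10190 and 8340 UMIs. The sort can set these shares. The casein-low classes of the libraries were not alike: their median casein share was 0.181% of UMIs in WT and 0.0200% in C3-TAg. Of 7 secretory or alveolar markers outside the rule, 5 were at least 1.5-fold lower in C3-TAg casein-low cells and 0 higher. Among all measured genes 14.7% were lower there. The part of this difference in the casein-low ratios below was not tested. Prlr, the prolactin receptor, which the rule did not use, reached 2499.7 CPM in hormone-sensing cells of WT and 1503.1 CPM in those of C3-TAg, and lay between 67.0 and 288.7 CPM in the other classes. The milk gene Lalba, which hormone-sensing cells should lack, serves as a measure of free RNA there. In cells thinned to 2000 UMIs, 5.35% of hormone-sensing cells held a Lalba UMI in WT and 1.58% in C3-TAg, against 80.0% and 42.0% of casein-high cells. The thinned share with a UMI in WT hormone-sensing cells was 2.14% for Cxcl1, 1.48% for Csf1 and 6.13% for Csf3, and 12.99% and 20.1% for Cxcl16 and Cxcl17. In C3-TAg it was 15.0% for Cxcl1 and between 0.347% (Cxcl5) and 12.9% (Cxcl16) for the others. Since Lalba is far more abundant than most of these genes, its share is no floor for theirs. Its ratio of hormone-sensing over all other cells is therefore given as well. That CPM ratio was 0.0244 for Lalba in WT (0.0233 to 0.0256). Among the 10 genes it ran from 0.0389 (Ccl20) to 5.14 (Cxcl17), and only that of Ccl20, from 3 UMIs (0.00794 to 0.116), did not lie above the one of Lalba beyond counting error. In C3-TAg it was 0.0732 for Lalba (0.0671 to 0.0797), and all 10 genes lay above it, from 0.324 for Cxcl5 (0.221 to 0.460) upwards. The mix of cells in the class, described next, also enters these ratios. How many of the genes' UMIs came from free RNA was not tested.

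The hormone-sensing class was not of 1 kind in C3-TAg. Of its 2027 cells, 933 (46.0%) reached the threshold only through Areg, against 347 of 2720 (12.8%) in WT. In these 933 cells Krt14, a basal and stress keratin, was at 214.0 CPM, against 12.6 CPM in the remaining 1094, and Prlr was at 995.5 against 1966.5 CPM. Several chemokine genes were much higher in them: Cxcl1 was at 384.5 against 65.0 CPM, Cxcl2 at 159.1 against 13.04 CPM, Ccl20 at 52.2 against 1.12 CPM and Csf1 at 70.5 against 5.51 CPM. Each hormone-sensing ratio of the 10 genes is therefore followed by the one without the cells that passed only through Areg, a setting chosen after the data were seen.

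The start regions of 4 of the genes are shown first, because NF-kB and interferon-regulated factors act on letters ahead of these genes. RefSeq (GRCm38.p6) had an entry for 5 of the 10 genes, Cxcl1, Cxcl2, Cxcl10, Ccl20 and Csf1. The 250 bases before the start were searched on both strands for an NF-kB motif, for the interferon-response motif (GAAA, any 2 bases, GAAA) and for the AP-1 motif TGANTCA. Capitals below mark matches to the NF-kB motif and, in Cxcl10, also the match GAAAGTGAAA to the interferon motif.
Cxcl1, chr5:90890995-90891244, plus strand: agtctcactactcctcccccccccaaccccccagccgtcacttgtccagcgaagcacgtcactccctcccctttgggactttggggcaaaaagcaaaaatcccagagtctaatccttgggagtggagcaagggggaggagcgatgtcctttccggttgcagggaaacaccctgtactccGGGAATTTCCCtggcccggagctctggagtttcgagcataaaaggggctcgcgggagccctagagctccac
Cxcl2, chr5:90903649-90903898, plus strand: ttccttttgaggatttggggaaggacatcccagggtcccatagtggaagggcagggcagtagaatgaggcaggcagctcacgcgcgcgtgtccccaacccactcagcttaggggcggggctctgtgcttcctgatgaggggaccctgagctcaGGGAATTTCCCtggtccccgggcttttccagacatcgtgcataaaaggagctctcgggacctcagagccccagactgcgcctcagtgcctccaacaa
Cxcl10, chr5:92348890-92349139, minus strand: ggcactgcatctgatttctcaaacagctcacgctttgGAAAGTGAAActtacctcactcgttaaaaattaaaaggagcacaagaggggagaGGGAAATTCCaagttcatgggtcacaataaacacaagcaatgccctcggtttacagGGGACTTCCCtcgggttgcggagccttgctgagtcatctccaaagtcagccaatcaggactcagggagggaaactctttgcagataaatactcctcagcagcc
Ccl20, chr1:83116516-83116765, plus strand: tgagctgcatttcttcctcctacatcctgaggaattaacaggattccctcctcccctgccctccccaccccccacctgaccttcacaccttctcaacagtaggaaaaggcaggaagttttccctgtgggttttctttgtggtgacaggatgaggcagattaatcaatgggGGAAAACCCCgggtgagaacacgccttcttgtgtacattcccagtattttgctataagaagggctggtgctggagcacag
Cxcl1 and Cxcl2 hold the same 11-base run, GGGAATTTCCC, in which 2 overlapping matches lie, from 71 bases before the start in Cxcl1 and from 97 bases before it in Cxcl2. Cxcl10 holds separate NF-kB matches 159 and 103 bases before the start, the interferon motif at 213 and an AP-1 match at 74 bases. Ccl20 has a match 80 bases before the start, and Csf1 (chr3:107760470-107760719, minus strand) has GGAAAGTCCC at 154 bases. Of 32851 promoters of this length, 3.90% held the NF-kB motif, 2.98% the interferon motif and 6.75% the AP-1 motif. A match describes letters in the sequence, and binding was not measured. Distances are to the RefSeq start. In Cxcl1 and Cxcl2 that start lies inside the gene spans given below, which begin at 90891241 and 90903871. The distances of 71 and 97 bases therefore depend on the annotation used.

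Between the libraries the 10 genes divided into those that were higher in C3-TAg in every class, those that were lower in every class and those whose difference depended on the class. In all 3 classes Cxcl5, Cxcl10, Ccl2 and Ccl20 passed 1.5-fold on the side of C3-TAg, and Cxcl17 and Csf3 passed it on the side of WT. Cxcl1, Cxcl2 and Csf1 were higher in C3-TAg hormone-sensing cells, whereas in casein-low cells they were lower. In hormone-sensing cells 7 of 10 genes were past 1.5-fold higher, where 22.8% of the 12786 measured genes were, and 2 were past 1.5-fold lower, where 9.14% were. With the cells that passed only through Areg left out, 4 were higher, against 11.9% of measured genes, and 3 lower, against 9.62%. Cxcl5 and Ccl20 then had fewer than 20 UMIs over both sides and were not called. The 4 higher genes included Ccl2, at 2.39 (0.956 to 5.92) on 11 against 12 UMIs. In casein-high cells 4 were higher and 5 lower, against 31.2% and 10.6% of 12905 measured genes. In casein-low cells 4 were higher and 5 lower as well, against 37.2% and 14.7% of 12820 measured genes. The median log2 ratio of the 10 genes was 3.68 in hormone-sensing, -0.61 in casein-high and -0.46 in casein-low cells, beside 0.14, 0.32 and 0.35 over all measured genes. With trimmed-mean (TMM) scaling, under which the log2 ratios of the 3 classes decreased by 0.18, 0.34 and 0.24, the background became 17.0% higher and 14.1% lower in hormone-sensing, 17.4% and 17.6% in casein-high and 26.0% and 19.8% in casein-low cells. The genes' own calls between libraries kept their side except that Cxcl1 in casein-high cells was then also past 1.5-fold lower, which made 6.

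**Figure D1:**
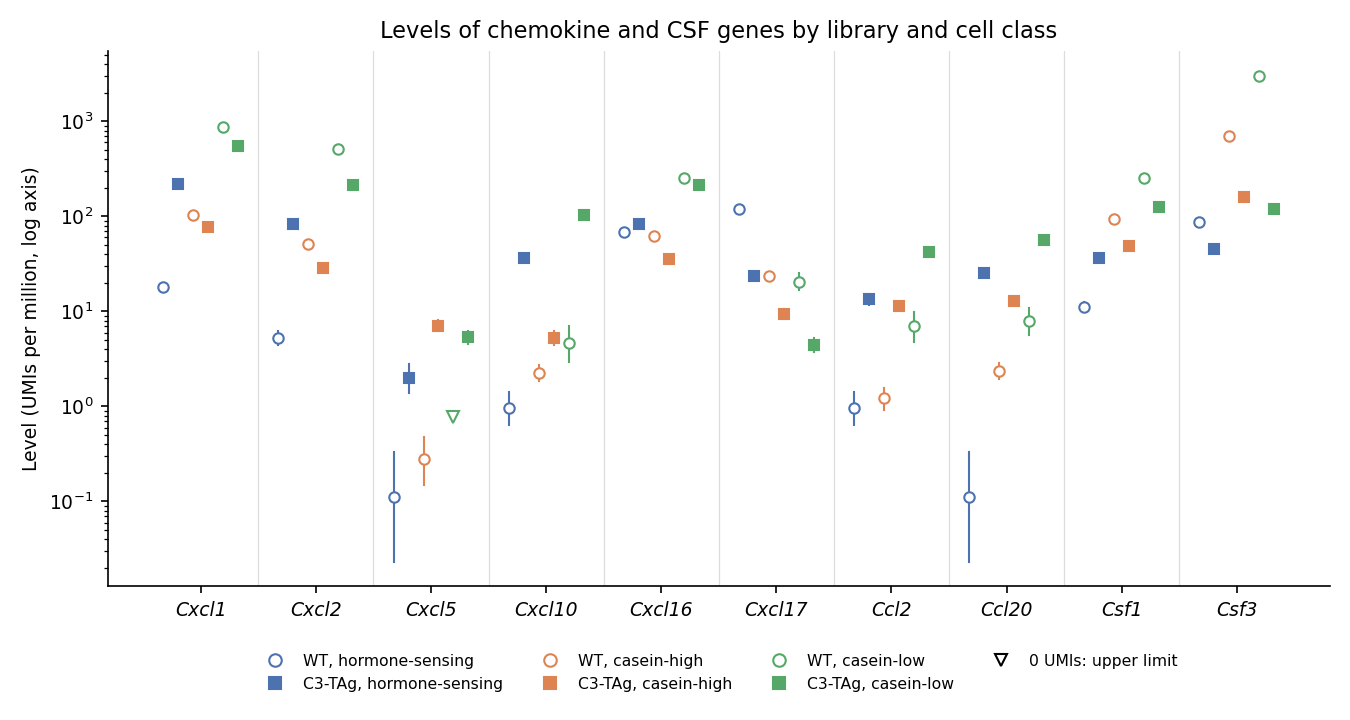
Level of each gene in CPM (log axis) in the 3 cell classes of the WT (open circles) and C3-TAg (filled squares) libraries. Bars are 95% Poisson intervals of counting error, and the open triangle is the upper limit for Cxcl5 in WT casein-low cells, where no UMI was found. Csf3 in casein-low cells stands at 3020.2 in WT and 120.0 in C3-TAg, while Cxcl10 there stands at 4.63 and 103.9.

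Cxcl1 and Cxcl2, the ligands of CXCR2 that draw neutrophils, had their highest levels in casein-low cells of both libraries. Cxcl1 (ENSMUSG00000029380, chromosome 5, 90891241 to 90893115, plus strand, GRCm38) was at 18.3 CPM in hormone-sensing, 103.2 CPM in casein-high and 875.3 CPM in casein-low WT cells. In C3-TAg it was at 217.5, 77.7 and 550.6 CPM. The order was thus casein-low, casein-high, hormone-sensing in WT, but casein-low, hormone-sensing, casein-high in C3-TAg, with no overlap of counting intervals between neighbours. The C3-TAg order rested on the cells that passed only through Areg. Without them its hormone-sensing cells were at 65.0 CPM, below casein-high cells, as in WT. The C3-TAg level was 11.9-fold higher in hormone-sensing cells (10.8 to 13.1), 1.33-fold lower in casein-high cells (1.26 to 1.40) and 1.59-fold lower in casein-low cells (1.54 to 1.64). The hormone-sensing ratio was 5.02 (4.36 to 5.79) when the cells that passed only through Areg were left out, at 65.0 against 12.9 CPM. The casein-low difference ranged from 1.29-fold to 1.88-fold lower over 15 alternative settings, and did not pass 1.5-fold with a hormone-sensing threshold of 10 UMIs per 10000, a casein threshold of 1% or an unweighted mean over cells.

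Cxcl2 (ENSMUSG00000058427, chromosome 5, 90903871 to 90905938, plus strand), the neighbour of Cxcl1 in the chemokine cluster of chromosome 5, followed the same order. It was at 5.32, 51.0 and 508.4 CPM in hormone-sensing, casein-high and casein-low WT cells, and at 82.8, 28.3 and 212.9 CPM in those of C3-TAg. Here too C3-TAg hormone-sensing cells fell below casein-high cells, to 13.04 CPM, without the cells that passed only through Areg. The C3-TAg level was 15.6-fold higher in hormone-sensing cells (13.1 to 18.6) and 2.85-fold higher (2.17 to 3.75) without the cells that passed only through Areg. It was 1.80-fold lower in casein-high cells (1.66 to 1.95) and 2.39-fold lower in casein-low cells (2.28 to 2.502). With called doublets kept (ratio 0.757) or all deposited barcodes used (0.763), the casein-high difference no longer passed 1.5-fold, and the casein-low one passed in every setting run. In thinned casein-low cells of WT 33.6% held a Cxcl1 UMI (29.7 to 37.6%), and in those of C3-TAg 32.7% did (31.1 to 34.3%), so that the share of cells with a transcript did not separate the libraries, while the summed level did.

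Cxcl5 (ENSMUSG00000029371, chromosome 5, 90759360 to 90761624, plus strand), the third CXCR2 ligand of the set, was near the detection limit in WT. It had 3, 13 and 0 UMIs in WT hormone-sensing, casein-high and casein-low cells, or 0.112, 0.277 and 0 CPM, with an upper limit of 0.777 CPM for the last. In C3-TAg it had 34, 203 and 172 UMIs, or 1.997, 7.10 and 5.34 CPM. Each C3-TAg class thus stood above each WT class. Without the cells that passed only through Areg, C3-TAg hormone-sensing cells were at 0.674 CPM, under the upper limit of WT casein-low cells. The ratio was 17.8 in hormone-sensing cells (5.59 to 90.5) and 25.6 in casein-high cells (14.6 to 48.9), and in casein-low cells the level was at least 8.46-fold higher, with 3 UMIs as the floor of the WT class. The hormone-sensing value rested on 6 against 3 UMIs once the cells that passed only through Areg were left out. A single casein-high cell held 42 of the 203 UMIs. Without the 1% of cells with most Cxcl5 UMIs the WT class was at 0, and the C3-TAg level was at least 32.9-fold higher. The 38 WT cells left out included all 11 with a Cxcl5 UMI, so this bound does not show a larger difference.

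Csf3 (ENSMUSG00000038067, chromosome 11, 98701263 to 98703629, plus strand) encodes granulocyte colony-stimulating factor, the growth factor of the neutrophils that the CXCR2 ligands attract. It was at 88.2, 705.2 and 3020.2 CPM in hormone-sensing, casein-high and casein-low WT cells, and at 45.8, 160.5 and 120.0 CPM in those of C3-TAg. Both casein-high and casein-low cells were therefore far lower in C3-TAg, by 4.39-fold (4.26 to 4.53) and by 25.2-fold (24.3 to 26.1). In hormone-sensing cells the level was 1.93-fold lower (1.78 to 2.09), and 4.33-fold lower (3.66 to 5.15) without the cells that passed only through Areg. In cells thinned to 2000 UMIs 57.6% of WT casein-low cells held a Csf3 UMI (53.5 to 61.7%), whereas 8.86% did in C3-TAg (7.92 to 9.87%), beside 33.1% and 14.4% of casein-high cells. Cxcl2, by comparison, was found in 15.5% and 12.4% of casein-low cells, and Csf3 thus differed both in its share of cells and in its summed level. The casein-low difference lay between 19.7-fold and 35.1-fold lower over the 15 alternatives. The casein-low classes also differed in median casein share between the libraries, and the part of this in the Csf3 difference was not tested.

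Cxcl10 (ENSMUSG00000034855, chromosome 5, 92346638 to 92348889, minus strand), the interferon-inducible ligand of CXCR3, was scarce in the WT library. It had 26, 105 and 22 UMIs in WT hormone-sensing, casein-high and casein-low cells, or 0.974, 2.24 and 4.63 CPM. In C3-TAg it was at 36.4, 5.28 and 103.9 CPM, from 620, 151 and 3343 UMIs. The level was 37.4-fold higher in C3-TAg hormone-sensing cells (25.3 to 57.7), 2.36-fold higher in casein-high cells (1.83 to 3.05) and 22.4-fold higher in casein-low cells (14.8 to 35.8). It was the gene of the set whose hormone-sensing ratio moved least without the cells that passed only through Areg, at 38.1 (18.7 to 90.4), on 117 against 8 UMIs. The intervals of C3-TAg casein-high and WT casein-low cells overlapped. In casein-high cells 53 of the 105 WT UMIs and 91 of the 151 C3-TAg UMIs came from a single cell each, and without the top 1% of cells too few UMIs were left to measure the ratio there.

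Ccl2 (ENSMUSG00000035385, chromosome 11, 82035571 to 82037453, plus strand), which draws monocytes, was at 0.974, 1.22 and 6.95 CPM in hormone-sensing, casein-high and casein-low WT cells. In C3-TAg it was at 13.5, 11.3 and 41.9 CPM, and the first 2 of these did not differ beyond their counting intervals. The level was 13.9-fold higher in C3-TAg hormone-sensing cells (9.23 to 21.7), 9.29-fold higher in casein-high cells (6.99 to 12.5) and 6.04-fold higher in casein-low cells (4.28 to 8.80). The WT casein-low value came mostly from 1 cell, which held 29 of the 33 UMIs. When cells with 2 or more UMIs of myeloid, lymphoid, endothelial or fibroblast markers other than Trbc2 were left out, the casein-low ratio became 182.9 (32.8 to 7231.5). Without the cells that passed only through Areg, the hormone-sensing ratio was 2.39 (0.956 to 5.92), on 11 against 12 UMIs, which at this depth does not separate the libraries.

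Ccl20 (ENSMUSG00000026166, chromosome 1, 83116766 to 83119167, plus strand), the ligand of CCR6, was at 0.112, 2.37 and 8.003 CPM in hormone-sensing, casein-high and casein-low WT cells and at 25.5, 12.9 and 56.3 CPM in those of C3-TAg. All 3 C3-TAg classes lay above all 3 WT classes. This rested on the cells that passed only through Areg. Without them C3-TAg hormone-sensing cells were at 1.12 CPM, which was not above WT casein-high or casein-low cells. The hormone-sensing ratio was 226.9 (77.1 to 1104.5), from 434 against 3 UMIs. Of all 10 genes its ratio moved most without the cells that passed only through Areg, when 10 against 2 UMIs remained (ratio 13.04, 2.78 to 122.4). In casein-high cells the level was 5.45-fold higher (4.395 to 6.80), where 1 WT cell held 66 of the 111 WT UMIs. The lowest ratio over the alternatives was 3.83, with an unweighted mean over cells. When the 1% of cells with most Ccl20 UMIs were left out, the 38 WT cells removed included all 17 with a Ccl20 UMI. The C3-TAg level was then at least 20.3-fold higher, a bound with 3 UMIs as the floor of the WT class. In casein-low cells it was 7.04-fold higher (5.11 to 9.97), and between 5.95 and 28.8 over the alternatives.

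Csf1 (ENSMUSG00000014599, chromosome 3, 107741048 to 107760469, minus strand), the growth factor of macrophages, was lower in C3-TAg outside the hormone-sensing class. It was at 11.3, 93.5 and 252.1 CPM in hormone-sensing, casein-high and casein-low WT cells and at 36.5, 48.9 and 125.2 CPM in those of C3-TAg. The order of the classes was the same in both libraries, with no overlap of counting intervals. The C3-TAg level was 1.91-fold lower in casein-high cells (1.80 to 2.03) and 2.01-fold lower in casein-low cells (1.89 to 2.15). In hormone-sensing cells it was 3.24-fold higher (2.82 to 3.73), but 1.48-fold lower (1.08 to 2.07) without the cells that passed only through Areg, so that the direction rested on those cells.

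Cxcl16 was found in many cells of every class. Cxcl16 (ENSMUSG00000018920, chromosome 11, 70453983 to 70459984, minus strand), whose membrane-bound product is released by the protease ADAM10, was at 69.1, 61.9 and 255.9 CPM in hormone-sensing, casein-high and casein-low WT cells and at 83.6, 35.4 and 214.6 CPM in those of C3-TAg. Its C3-TAg level was 1.21-fold higher in hormone-sensing cells (1.13 to 1.30), or 1.55-fold lower (1.38 to 1.73) without the cells that passed only through Areg. It was 1.75-fold lower in casein-high cells (1.63 to 1.88), which did not pass 1.5-fold with called doublets kept (ratio 0.717) or all deposited barcodes used (0.728), and 1.19-fold lower in casein-low cells (1.12 to 1.27). Adam10 itself stood at 211.0 CPM in hormone-sensing cells of WT, at 195.6 CPM in those of C3-TAg and between 43.2 and 57.9 CPM in the other classes.

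Cxcl17 (ENSMUSG00000060188, chromosome 7, 25400053 to 25412886, minus strand), a chemokine of mucosal surfaces, was the only gene of the set that was higher in hormone-sensing cells than in the other cells of both libraries. It was at 121.1, 23.8 and 20.6 CPM in hormone-sensing, casein-high and casein-low WT cells and at 23.7, 9.48 and 4.44 CPM in those of C3-TAg. In C3-TAg it was 5.12-fold lower in hormone-sensing cells (4.61 to 5.69) and 4.05-fold lower (3.58 to 4.61) without the cells that passed only through Areg. It was 2.52-fold lower in casein-high cells (2.20 to 2.88) and 4.65-fold lower in casein-low cells (3.56 to 6.05). The levels of WT casein-high, C3-TAg hormone-sensing and WT casein-low cells did not differ beyond their counting intervals. Of thinned hormone-sensing cells, 20.1% held a Cxcl17 UMI in WT (18.6 to 21.7%), against 4.802% for C3-TAg (3.91 to 5.83%).

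**Figure D2:**
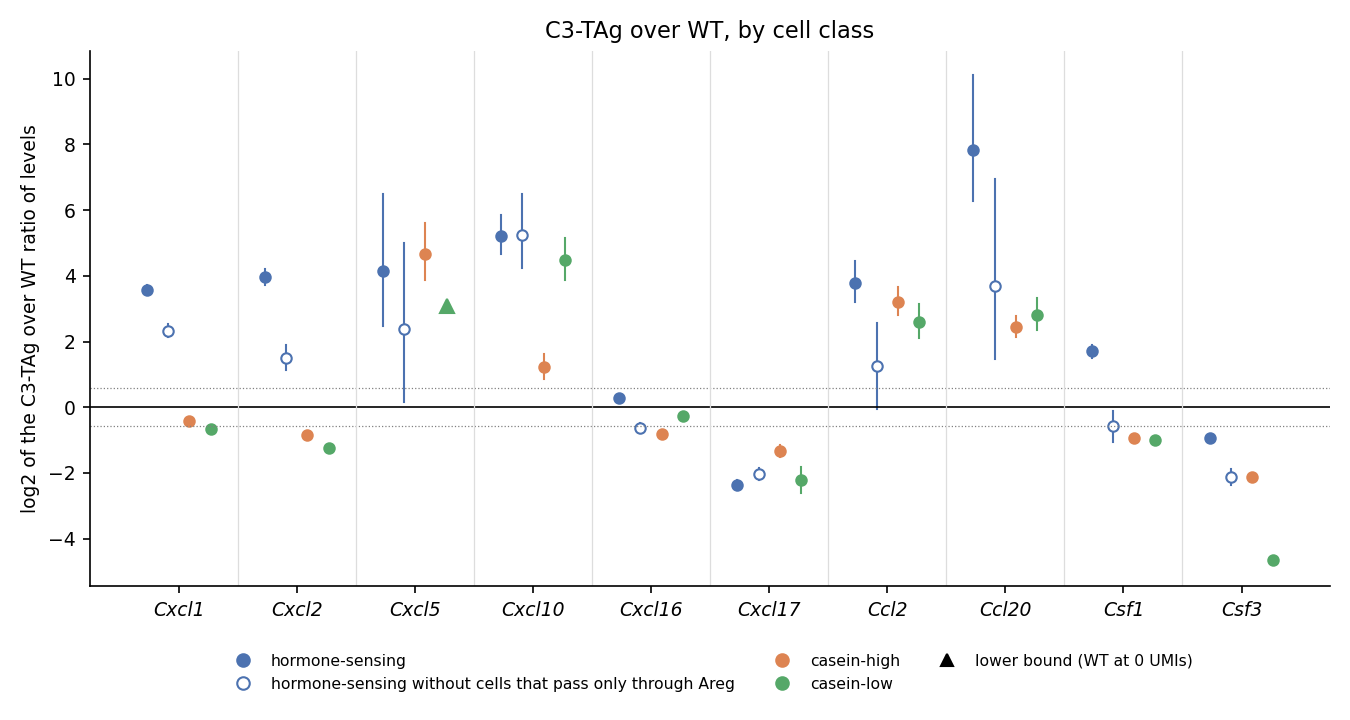
Log2 ratio of C3-TAg over WT levels in the 3 cell classes, with 95% intervals of counting error. Open circles give hormone-sensing cells without those that passed only through Areg, the triangle is a lower bound, and dotted lines mark 1.5-fold either way. Cxcl10 stays at a ratio of 38.1 in the reduced class, while Csf1 moves from 3.24 to 0.676.

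Within each library most of the genes were lowest in hormone-sensing cells or casein-high cells and peaked in casein-low cells. In WT, 7 of the 9 measured genes were at least 1.5-fold lower in hormone-sensing than in other cells, where 21.1% of 13298 measured genes were, and 1 was higher, where 37.5% were. The differences ran from 1.79-fold for Ccl2 to 25.7-fold for Ccl20, with Cxcl1, Csf1 and Csf3 at 9.53-fold, 9.59-fold and 10.4-fold. In C3-TAg, 8 of 10 were lower in hormone-sensing cells, against 24.2% of 13757 measured genes, and 1 was higher, against 20.1%, but the differences were small for Cxcl1 (1.51-fold), Cxcl2 (1.52-fold), Cxcl16 (1.56-fold) and Cxcl10 (1.58-fold). With a hormone-sensing threshold of 3 UMIs per 10000 none of these 4 passed 1.5-fold. Without the cells that passed only through Areg, 9 were lower, Cxcl1 then by 5.05-fold and Cxcl2 by 9.67-fold. The background under TMM scaling was 28.2% lower and 27.1% higher in WT and 23.6% and 20.5% in C3-TAg.

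Casein-low cells exceeded casein-high cells for 8 of the 9 genes measured in WT, against 25.9% of 12304 measured genes, and none was lower, against 8.13%. The ratio was 9.98 for Cxcl2 (9.42 to 10.6), 8.48 for Cxcl1 (8.14 to 8.84), 4.28 for Csf3 (4.20 to 4.37), 4.13 for Cxcl16 (3.86 to 4.42) and 2.70 for Csf1 (2.53 to 2.88). For Ccl2 the ratio of 5.71 became 0.212 (0.00526 to 1.24) once cells with non-epithelial markers were left out, and Cxcl10 went from 2.07 to 1.08. In C3-TAg 7 of 10 genes were higher in casein-low cells, against 30.8% of 13235 measured genes, and Cxcl17 was lower, where 8.99% were. The ratio was 19.7 for Cxcl10 (16.7 to 23.3), 7.52 for Cxcl2 (6.99 to 8.09), 7.09 for Cxcl1 (6.78 to 7.41), 6.06 for Cxcl16 (5.68 to 6.48), 4.36 for Ccl20, 3.71 for Ccl2 and 2.56 for Csf1. Csf3, which stood 4.28-fold higher in WT casein-low than casein-high cells, was at 120.0 against 160.5 CPM in C3-TAg, 1.34-fold lower (1.28 to 1.40). Under TMM scaling the background was 15.8% higher and 15.7% lower in WT and 18.6% and 16.2% in C3-TAg, and 3 genes instead of 1 were then past 1.5-fold lower in casein-low than in casein-high C3-TAg cells.

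A feature shared by most of the set was that few cells held most of the transcripts. For each gene the share of cells with a UMI was set beside the share that an even spread over cells, in proportion to their depth, would give. In C3-TAg casein-low cells the median over the 9126 genes with at least 200 UMIs was an observed share of 0.957 of the even one, and 0.833% of genes were at 0.5 or less. Ccl2 stood at 0.164 and ranked 9th from the most concentrated, Cxcl10 at 0.180 (rank 10), Ccl20 at 0.232 (rank 14), Csf3 at 0.272 (rank 19), Cxcl2 at 0.274 (rank 20), Csf1 at 0.519 (rank 82) and Cxcl1 at 0.557 (rank 105). Cxcl16, at 0.808 and rank 560, was found in 65.8% of cells where an even spread would give 81.4%. Cxcl2 was found in 22.3% of cells where an even spread would give 81.2%.

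**Figure D3:**
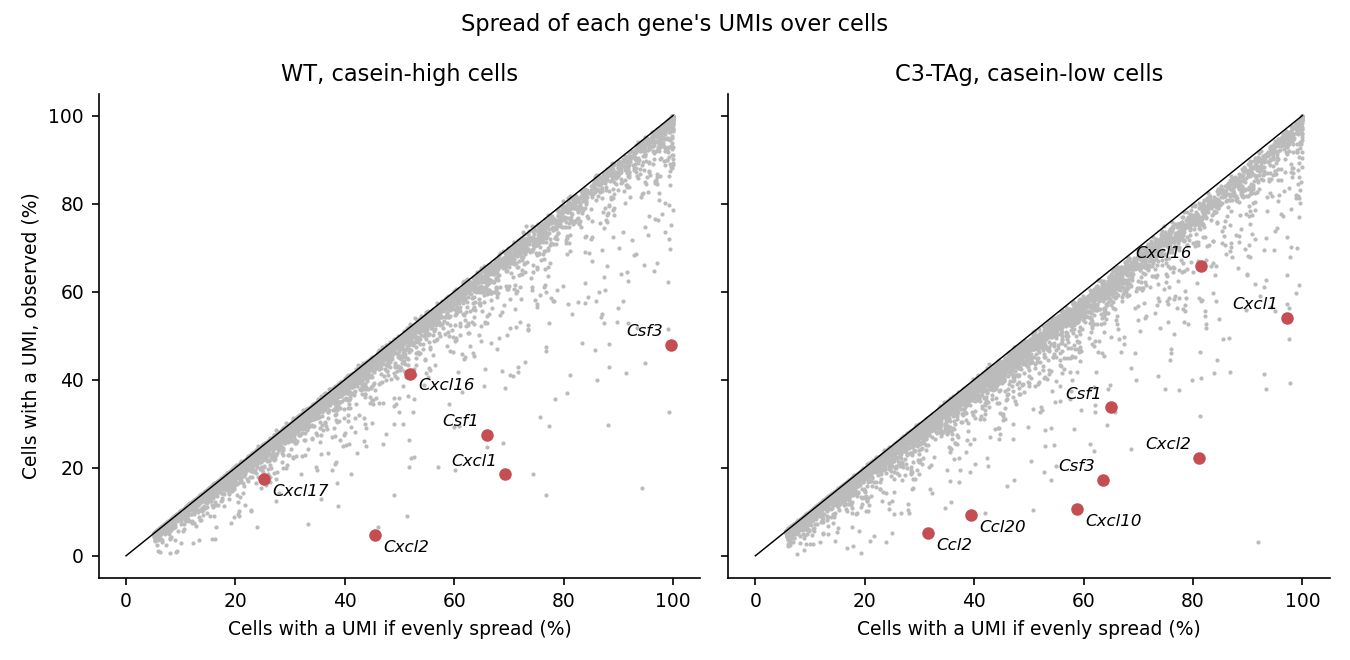
Observed share of cells with a UMI of a gene (vertical, percent) against the share expected if its UMIs were spread evenly in proportion to depth (horizontal, percent), for WT casein-high and C3-TAg casein-low cells. Grey points are all genes with at least 200 UMIs, red points the genes described, and the line marks equality. Cxcl2, at 4.72% of WT casein-high cells against 45.6% if evenly spread, lies far under the line. Cxcl16, at 41.4% against 51.9% there, lies under it by less.

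In WT, where Cxcl5, Cxcl10, Ccl2 and Ccl20 had too few UMIs in every class to be ranked, Cxcl2 was the most concentrated of the ranked genes of the set in casein-high and casein-low cells. In WT casein-high cells Cxcl2 ranked 3rd of 8553 genes, found in 177 of 3750 cells, and 16 cells held 50% of its 2388 UMIs, with up to 245 in 1 cell. Cxcl1 ranked 17th, Csf1 36th, Csf3 54th, Cxcl17 165th and Cxcl16 349th there. Csf3 was spread more widely than Cxcl2: it was found in 48.0% of casein-high cells, and 247 cells were needed to hold 50% of its 33046 UMIs. In WT hormone-sensing cells, by contrast, Csf3 was found in 14.6% of cells and ranked 6th of 8090 genes, with 23 cells holding 50% of its 2355 UMIs and up to 202 in 1 cell. In C3-TAg hormone-sensing cells Cxcl10 ranked 4th, Cxcl2 7th, Ccl20 8th and Ccl2 17th of 7473 genes. In C3-TAg casein-high cells the same 3 genes Cxcl2, Ccl20 and Ccl2 ranked 4th, 5th and 11th of 8310, and Cxcl5 ranked 31st.

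In C3-TAg casein-low cells the 34 cells with most of a gene's UMIs, 1% of the class, held 79.2% of the Cxcl10 UMIs, 79.2% of those of Ccl2, 56.9% of those of Ccl20, 35.5% of those of Cxcl2, 35.4% of those of Csf3, 19.97% of those of Csf1 and 18.5% of those of Cxcl1. The median over all genes with at least 200 UMIs was 10.5%, and Cxcl16 was at 7.47%. This share also depends on how many UMIs a gene has. Beside an even spread Cxcl16 ranked 560th of 9126 genes, on the concentrated side of the median. A single cell held 482 of the 3343 Cxcl10 UMIs, and 9 cells held 50% of them. For Ccl2 7 cells, for Ccl20 26, for Cxcl2 66, for Csf1 165, for Cxcl1 183 and for Cxcl16 486 cells held 50%. After thinning to 2000 UMIs the top 1% still held 74.1% of Cxcl10, 84.6% of Ccl2 and 59.3% of Ccl20 UMIs. Leaving out the 1% of cells with most of the gene gave casein-low C3-TAg over WT ratios of 103.2 for Cxcl10 (18.5 to 4080) and 28.8 for Ccl20 (11.2 to 105.8). For Ccl2, which was then at 0 in WT, the C3-TAg level was at least 13.8-fold higher. This setting left out 6 WT cells per gene, while only 7, 10 and 5 WT cells held a UMI of Cxcl10, Ccl20 and Ccl2. The cells left out held 95.45%, 89.47% and 100% of the WT UMIs, against 79.2%, 56.9% and 79.2% in C3-TAg. The rise of these ratios therefore follows from the trim and does not show a larger difference.

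**Figure D4:**
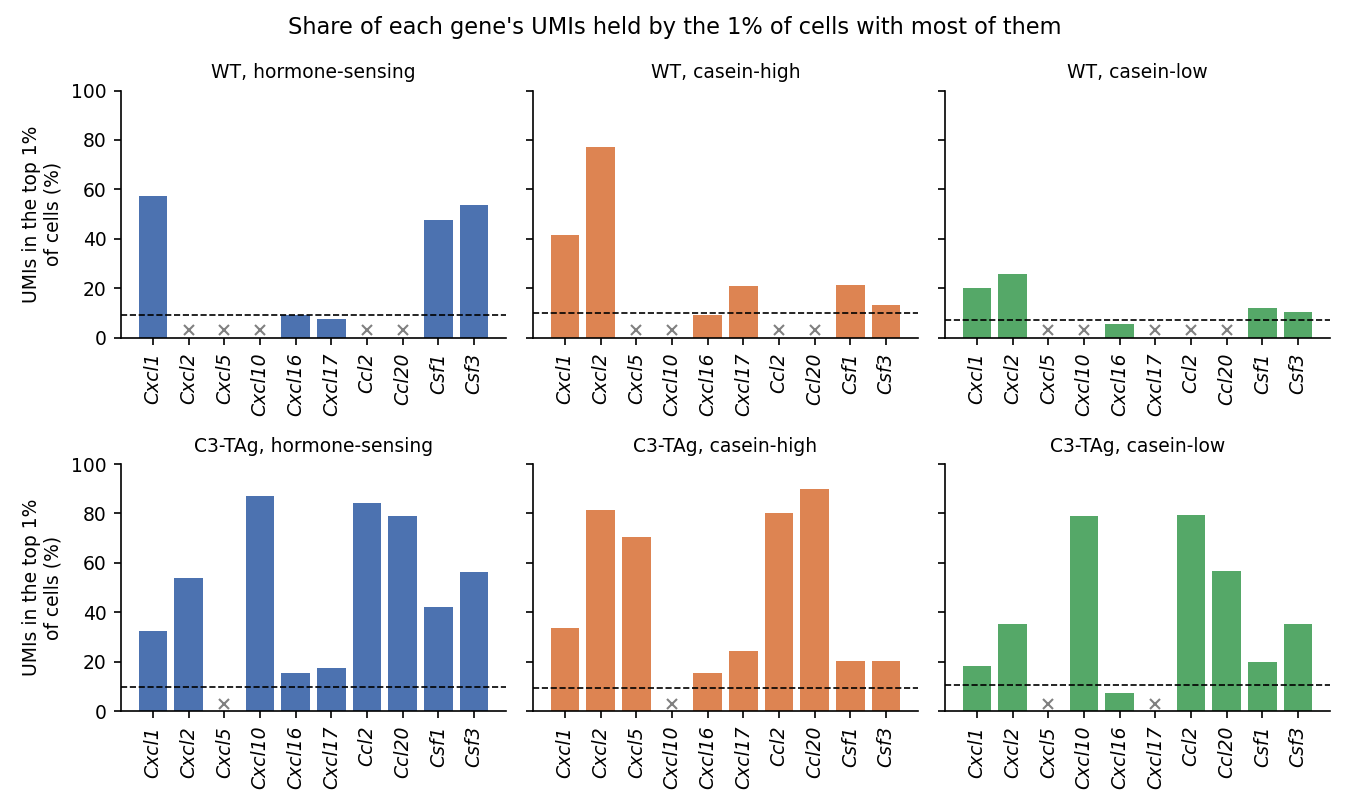
Share of each gene's UMIs (percent) held by the 1% of cells with most of them, in the 3 classes of each library. The dashed line is the median over all genes with at least 200 UMIs in the class, and a cross marks a gene with fewer. Ccl20 in C3-TAg casein-high cells reaches 89.97%, and Cxcl16 lies near the line in the WT classes.

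Nearly all of these cells held an epithelial transcript, which by itself does not tell epithelium from other cells. Of the 34 cells highest in a gene in C3-TAg casein-low cells, 33 or 34 had an Epcam UMI for each of the 8 genes ranked, and at most 3 had 2 or more UMIs of non-epithelial markers, except for Cxcl10, where 6 had. Their median depth lay between 8724 UMIs for Cxcl2 and 14587 for Cxcl16, against 8340 in the class. Their median mitochondrial share lay between 3.01% and 3.87%, against 3.71%. In WT casein-high cells all 38 cells highest in Cxcl1 had an Epcam UMI and 2 had 2 or more non-epithelial UMIs. Of the 6 WT casein-low cells highest in each ranked gene, 5 or 6 had an Epcam UMI. At most 2 of them had 2 or more non-epithelial UMIs. Epcam stood at 4594.1 CPM in C3-TAg casein-low cells, so that 1 UMI can also come from free RNA or a doublet.

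The top cells of different genes overlapped to different degrees. Each set was 1% of its class, so unrelated sets would share about 1% of their cells. Sharing none or 1 is near that and does not show that genes peaked apart. The 34 cells highest in Cxcl1 and the 34 highest in Cxcl2 in C3-TAg casein-low cells shared 17, 50% of each, and the 38 highest of each in WT casein-high cells shared 20, 52.6% of each. Csf3 shared 10 of 38 top cells with Cxcl1 (26.3%) and 13 with Cxcl2 (34.2%) in WT casein-high cells. The top cells of Cxcl10 in C3-TAg casein-low cells shared 1 of 34 with Cxcl1, none with Cxcl2, 2 with Ccl2 and 1 with Ccl20. Those of Ccl20 and Cxcl1 shared 4 of 34 (11.8%) there, and 8 of 20 (40.0%) in C3-TAg hormone-sensing cells. Those of Csf1 shared none of 34 with Cxcl10, Cxcl16 or Ccl20 in C3-TAg casein-low cells, but 1, 5 and 2 of 20 in C3-TAg hormone-sensing cells.

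The top cells of different genes differed in the gene programmes around them. In the 34 C3-TAg casein-low cells highest in Cxcl10, the median summed level of 12 interferon response genes was 4524 CPM, against 178.2 CPM in the class. In those highest in Cxcl1 it was 230.8 CPM, while the 16 genes of NF-kB subunits and feedback were at 6542.4 CPM, against 3684.3 CPM in the class, and at 4043.4 CPM in the Cxcl10 cells. The cells highest in Cxcl16 had immediate early genes at 16386.6 CPM, against 5925.7 CPM, and those highest in Csf1 had NF-kB genes at 3197 CPM, below the class. In WT casein-high cells those highest in Cxcl1 had NF-kB genes at 9585.5 CPM, against 4341.4 CPM, and those highest in Csf1 at 3075.2 CPM. These cells were picked by 1 gene, so the values describe them and test nothing.

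The genes whose levels followed each member most closely from cell to cell were sought in the class and library where that member had most UMIs. The measure was Pearson's r of log-scaled levels, across cells that share a library and differ in depth. Over 3396 C3-TAg casein-low cells Cxcl1 was followed most closely by Cxcl2 (r = 0.594), by Nfkbia, the NF-kB inhibitor and target (0.465), by Tnf, tumour necrosis factor (0.402), by Ier3 (0.379) and by Zc3h12a, an RNase that degrades inflammatory transcripts (0.377). Cxcl2 had the same first neighbours, Cxcl1, Nfkbia (0.314), Zc3h12a (0.312) and Tnf (0.301), and then Lif, a cytokine of the interleukin-6 family (0.293). Cxcl10 had Oasl1 (0.548), Ifit1 (0.540), Isg15 (0.446), Rsad2 (0.432) and Ifih1 (0.371), all known as interferon-induced genes. Cxcl16 was followed by Tm4sf1 (0.401), Tnfrsf12a, the receptor of TWEAK (0.399), Tagln2 (0.395), Anxa3 (0.373) and Anxa1 (0.362).

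The rarer ligands had weaker neighbours. Ccl2 was followed by Ccl7, its near relative on the same chromosome (0.275), by Cxcl2 (0.206), Cxcl1 (0.184), Lif (0.142) and Fstl1 (0.138). Ccl20 was followed by Cxcl1 (0.188), Bcl2a1b (0.183), Nfkbie (0.177), Icam1 (0.174) and Il23a (0.173), and reads of Bcl2a1b may be shared with its near-identical copies. Csf1 and Csf3 had most UMIs in the 3750 WT casein-high cells. There Csf3 was followed by Zc3h12a (0.406), Cxcl1 (0.397), Tnfaip2 (0.391), Nfkbia (0.382) and Efhd2 (0.369), whereas Csf1 was followed by the tight-junction gene Cldn4 (0.389), the EGF-receptor ligand Hbegf (0.333), Krt8 (0.330), Emp1 (0.313) and Ahnak (0.309). Cxcl17, over 2720 WT hormone-sensing cells, had R3hdml (0.185), Wfdc2 (0.175), Fgg (0.152), Ly6d (0.145) and Btf3 (0.144). Cxcl5 had too few UMIs for this measure.

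The signalling receptors of these ligands were at or near 0 in all classes. Cxcr1, Cxcr3 and Ccr2 had no UMI in any class, and Csf3r had 1, in C3-TAg casein-high cells. Cxcr2 had at most 7 UMIs in a class, Ccr6 at most 2, Cxcr6 at most 1 and Csf1r at most 19. Of 23 chemokine and colony-stimulating factor receptors, 7, 6 and 8 had 20 UMIs or more over both libraries in hormone-sensing, casein-high and casein-low cells, of which 1, 2 and 0 were past 1.5-fold higher in C3-TAg and 4, 3 and 6 past 1.5-fold lower. Among all measured genes, 22.8%, 31.2% and 37.2% were higher in these classes, and 9.14%, 10.6% and 14.7% lower. Cxcr4, the receptor of CXCL12, stood at 50.04 CPM in casein-high cells of WT and at 3.78 CPM in those of C3-TAg. Ackr3, a scavenging receptor of the same ligand, was at 22.1 and 11.5 CPM there. Ackr1, an atypical receptor that binds CXCL1, CXCL5 and CCL2, was at 23.2 CPM (110 UMIs) in casein-low cells of WT and at 5.28 CPM (170 UMIs) in those of C3-TAg, 4.39-fold lower, and at 0.712 CPM or less in the other classes.

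Other ligands of the family were counted as well. Of 30 listed chemokines and colony-stimulating factors, 14 were measured in hormone-sensing cells, 2 higher and 1 lower in C3-TAg. In casein-high cells 14 were measured, 5 higher and 3 lower, and in casein-low cells 18 were measured, 4 higher and 10 lower. The shares of all measured genes in hormone-sensing, casein-high and casein-low cells were 22.8%, 31.2% and 37.2% higher. They were 9.14%, 10.6% and 14.7% lower. Cxcl15 stood at 546.9 CPM in hormone-sensing cells of WT and at 544.3 CPM in those of C3-TAg, and, like Cxcl17, it was higher there than in the casein-high and casein-low cells of the same library, which lay between 2.18 and 45.3 CPM. Cx3cl1, a membrane-anchored chemokine like CXCL16, was at 90.4 against 21.7 CPM in casein-high cells and at 160.9 against 35.7 CPM in casein-low cells, WT first, which is 4.16-fold and 4.51-fold lower in C3-TAg. Ccl7, the relative of Ccl2, had 76, 1 and 7 UMIs in WT casein-high, casein-low and hormone-sensing cells and 193, 147 and 25 in those of C3-TAg. Cxcl3, another CXCR2 ligand, had 4, 24 and 0 UMIs in the same WT classes and 92, 114 and 18 in C3-TAg.

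Of the 16 genes of NF-kB subunits and feedback, 10 were lower and none higher in C3-TAg casein-low cells, where 14.7% of all measured genes were lower. In casein-high cells 8 were lower and 1 higher, against 10.6% lower. In hormone-sensing cells 1 was higher and none lower, against 22.8% and 9.14% of measured genes. Nfkb1 was at 540.4 against 208.4 CPM in casein-low cells and 292.5 against 99.9 CPM in casein-high cells, WT first, 2.59-fold and 2.93-fold lower. Birc3 was 4.53-fold and Icam1 2.60-fold lower in casein-low cells, whereas Rela was at 126.4 against 186.1 CPM. Cebpd, a C/EBP factor of the acute-phase response, was higher in C3-TAg hormone-sensing cells, at 268.4 against 69.9 CPM, and at 110.2 against 57.7 CPM without the cells that passed only through Areg. The median log2 ratio of the 16 genes was 0.05, -0.57 and -0.67 in hormone-sensing, casein-high and casein-low cells.

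Of the 12 interferon response genes, 9 were higher in C3-TAg and none lower in hormone-sensing cells, 6 and none in casein-high cells, and 9 and none in casein-low cells, with median log2 ratios of 1.39, 0.63 and 1.09. Of all measured genes 22.8%, 31.2% and 37.2% were higher in these classes. Without the cells that passed only through Areg, 6 of 11 measured interferon genes were higher and none lower in hormone-sensing cells, against 11.9% of measured genes higher. Usp18 was at 26.9 against 6.93 CPM and Isg15 at 49.2 against 15.5 CPM in hormone-sensing cells, C3-TAg first, and at 25.3 against 6.90 CPM and 34.7 against 14.4 CPM in the reduced class. Bst2 was at 147.9 against 52.2 CPM, Irf7 at 24.9 against 11.6 CPM and Ifit1 at 21.4 against 10.1 CPM in casein-low cells. Irf1 differed by less than 1.5-fold in all 3 classes. The listed interferon genes that passed 1.5-fold were thus higher in C3-TAg in every class, as were Cxcl5, Cxcl10, Ccl2 and Ccl20. In the reduced hormone-sensing class, Cxcl10 stayed higher. There Cxcl5 and Ccl20 had too few UMIs to be called, and Ccl2 did not separate the libraries beyond counting error. Most NF-kB genes that passed were lower in casein-high and casein-low cells, as were Cxcl2, Cxcl17, Csf1 and Csf3. Cxcl5, Cxcl10, Ccl2 and Ccl20 went the other way from the NF-kB genes there. Whether these directions are linked was not tested.

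Among 20 inducers and their receptors, Tnf was at 17.9 against 38.6 CPM in hormone-sensing cells, 17.0 against 7.10 CPM in casein-high cells and 54.1 against 52.1 CPM in casein-low cells, WT first. Il1rap, the accessory chain of the interleukin-1 receptor, was higher in C3-TAg in both, at 36.1 against 14.0 CPM in casein-high and 42.3 against 15.0 CPM in casein-low cells. In all, 6 of the 16 measured genes of this list were higher and 1 lower in hormone-sensing cells, 2 of 14 higher and 3 lower in casein-high cells, and 2 of 16 higher and 5 lower in casein-low cells. Among all measured genes, 22.8%, 31.2% and 37.2% were higher in these classes, and 9.14%, 10.6% and 14.7% lower. Of 9 genes of transcript decay and shedding, none passed 1.5-fold in hormone-sensing cells. Without the cells that passed only through Areg, Zfp36l1 (ratio 0.584), Zfp36l2 (0.501) and Zc3h12a (0.566) were lower there, against 9.62% of measured genes. Zc3h12a was 3.45-fold lower in C3-TAg casein-high cells and 3.66-fold lower in casein-low cells, at 34.8 against 119.9 and 74.5 against 272.3 CPM. Of 12 immediate early genes, which cell dissociation is known to induce, 2 were higher and 2 lower in hormone-sensing cells, 1 and 1 in casein-high cells and 3 and 3 in casein-low cells. The shares of all measured genes given above apply to these counts as well. Atf3 was 4.69-fold and Egr1 3.46-fold higher in C3-TAg casein-low cells, and Hspa1a was 3.87-fold lower.

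Markers of other cells were low, but not equal between the classes. The summed level of 9 myeloid markers in casein-low cells was 36.9 CPM for WT, 9.10 CPM for C3-TAg and between 3.63 and 9.20 CPM in the other classes, with Adgre1 at 0 in every class. The 5 endothelial markers summed to 35.4 CPM in casein-low cells of WT and 6.77 CPM in those of C3-TAg, the 5 fibroblast markers to 17.5 and 10.8 CPM and the 7 lymphoid markers to 12.0 and 7.27 CPM. In the other classes the sums were between 1.75 and 5.21 CPM for endothelial and 0.824 and 3.00 CPM for fibroblast markers. Ms4a1 was at 0 in every class, and Lyz2, C1qb and Itgam were at 0 in WT casein-low cells. Of the 70.2 CPM of lymphoid markers in WT hormone-sensing cells, 70.1 CPM were Trbc2 alone, and Cd3e and Cd3d were at 0 there. Ccr7, Ccl5 and Il1b, genes known from activated leukocytes, were at 105.1, 488.8 and 31.8 CPM in WT casein-low cells, where Csf3 and Cxcl1 had their highest levels, and at 0.435, 29.8 and 0.249 CPM in C3-TAg casein-low cells. Leaving out cells with 2 or more UMIs of non-epithelial markers other than Trbc2 left Csf3 26.7-fold lower in C3-TAg casein-low cells, Cxcl2 2.46-fold lower and Csf1 2.06-fold lower. The 6 basal markers summed to 66.3 CPM in WT casein-low cells, with Krt5 at 45.5 CPM, and to 21.4 CPM in those of C3-TAg, with Krt5 at 0.839 CPM, and their part in the casein-low results was not tested.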

How the data were processed

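The deposited matrices hold UMI counts per gene and barcode, which the authors obtained with Cell Ranger 3.1.0 and the mm10 genome, as the submitters' processing notes list them. The rule for calling barcodes: not given in the sources used here. The WT and C3-TAg matrices held 8993 and 9575 barcodes with 91133082 and 91932121 UMIs. Barcodes with at least 500 genes, at least 1000 UMIs and at most 10% mitochondrial UMIs were kept, and Scrublet (scanpy 1.11.5) removed 360 (4.86%) and 544 (6.43%) doublets, which left median depths of 10296 and 8684 UMIs. Counts were summed per library and class. Levels have exact Poisson, ratios exact conditional Poisson and shares exact Clopper-Pearson 95% intervals. PCR duplicates are collapsed by UMI, and the intervals cover counting error only. A ratio was measured with 20 UMIs over both sides, and the floor was 3 UMIs. With 1 library per genotype no test was run, and at least 1.5-fold describes size. Shares of cells with a UMI were taken after thinning to 2000 UMIs, leaving out shallower cells. Ratios were also scaled with TMM (edgeR 4.0.16, R 4.3.3). Other steps ran in Python 3.11.15 with pandas 2.3.3, numpy 2.4.6, matplotlib 3.10.9 and scipy 1.17.1, and the procedure was tested on simulated counts.

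The genes followed and the gene lists were chosen with earlier results of these data known. Named list genes were the 3 at either end of a list with at least 20 CPM, plus the receptors. Ccl7, Cxcl3 and the casein-high value of Tnf fall outside that rule and were chosen after their values were seen. The genes most like a member were the 5 with the highest r among genes found in at least 1% of cells, for members with at least 500 UMIs. In all, 13 alternative settings were set at the outset and 2, leaving out the cells that passed only through Areg and counting non-epithelial markers without Trbc2, were added after the data were seen.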

Additional observations from a re-analysis of the deposited data

Results flagged for a closer look

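Cxcl1, Cxcl2 and Csf1 stood past 1.5-fold on opposite sides in different classes, higher in C3-TAg in hormone-sensing cells and lower in another class of the same libraries. The log2 ratio of Cxcl1 was 4.24 higher in hormone-sensing than in casein-low cells. That of Cxcl2 was 4.81 higher in hormone-sensing than in casein-high cells and 5.22 higher than in casein-low cells. That of Csf1 was 2.63 higher in hormone-sensing than in casein-high cells and 2.71 higher than in casein-low cells. With 1 library per genotype the differences between classes were not tested. Without the cells that passed the hormone-sensing threshold only through Areg, Cxcl1 and Cxcl2 were still at least 1.5-fold higher in hormone-sensing cells, at ratios of 5.02 and 2.85, and Csf1 was at 0.676.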

How the results depend on the processing

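Of the 60 ratios of the 10 genes past 1.5-fold, 46 stayed past it on the same side under every alternative that gave a ratio. This was 15 alternatives for most, but 14 for Cxcl10, Ccl2 and Ccl20 in WT hormone-sensing over other cells. Over all ratios and alternatives, 3 values changed side. With all deposited barcodes or with called doublets kept, 3 genes instead of 5 were lower in C3-TAg casein-high cells, and 2 instead of 1 were higher in WT hormone-sensing than other cells. Without the 1% of cells with most of each gene, 5 instead of 8 genes were higher in WT casein-low than casein-high cells, as Cxcl10, Ccl2 and Ccl20 then had too few UMIs. Without the cells that passed only through Areg, 4 instead of 7 genes were higher in C3-TAg hormone-sensing cells, and the log2 ratio of Csf1 went from 1.70 to -0.57. Cxcl5 and Ccl20 then had too few UMIs to be called. The log2 ratio of Ccl2 in WT casein-low over casein-high cells went from 2.51 to -2.22 without cells with non-epithelial UMIs, and to -2.24 when Trbc2 was not counted among them. The cause was not tested. TMM scaling moved the number of all genes past 1.5-fold between libraries from 1169 to 1805 lower in hormone-sensing cells and from 4022 to 2251 higher and 1363 to 2274 lower in casein-high cells. For casein-low over casein-high cells it moved them from 3182 to 1945 higher and 1000 to 1934 lower in WT, and from 4076 to 2468 and 1190 to 2146 in C3-TAg. No paired analysis was possible because each genotype has 1 library. Depth limits Cxcl5 in all classes, and Cxcl10, Ccl2 and Ccl20 in WT, where 0 to 111 UMIs were counted.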
